A study of Mus musculus with 6 samples.

Results

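Open chromatin at 8 genes that make, bind or degrade hyaluronan was compared between the epithelium and the mesenchyme of the mouse palate: Has1, Has2, Has3, Cd44, Vcan, Hapln1, Hyal1 and Hyal2, out of 21938 annotated protein-coding genes. The genes were chosen by function, and all 8 carried called peaks in all 6 libraries. A peak was counted for a gene when its midpoint lay in the gene body or within 100 kb of the gene's start site, and each of these windows spanned 200001 bp of mm10. The libraries came from palatal shelves of C57BL/6 embryos at E14.5. Trypsin-treated shelves were peeled by hand to give 3 epithelium libraries, in which the basal layer and the periderm (the flat outermost layer) were together, and the largely mesenchymal tissue left behind gave 3 mesenchyme libraries. All 6 were ATAC-seq libraries, in which a transposase cuts accessible DNA, no genotype or treatment differed between the groups, and each library had its own list of called peaks without heights or scores. The sources differ on how many embryos were pooled for a replicate, so what a library stands for in animals is uncertain.

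Hyaluronan is a long, unbranched sugar polymer that Has enzymes spin out through the plasma membrane into the space between cells, where it takes up water and swells the matrix. Cells hold it through receptors such as CD44, large proteoglycans such as versican (Vcan) bind it with the help of link proteins such as HAPLN1, and hyaluronidases cut it. In the embryonic palate, hyaluronan-rich matrix of the shelf mesenchyme is a classical candidate for the force that lifts the shelves, while epithelia also make and bind the polymer.

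No member passed the test of either measure. The number of peaks per gene and the base pairs they covered were each scaled for the length of a library's list and compared with limma over 21750 genes, with Benjamini-Hochberg adjustment and a threshold of 0.05. In peaks per gene, 0 of the 8 members passed in either direction, where 1.49% of all genes were called higher in epithelium and 1.66% higher in mesenchyme. In covered base pairs, again 0 of 8 passed, where 6.16% of all genes were called higher in epithelium and 7.48% higher in mesenchyme. Unadjusted p-values under 0.05 occurred at 1616 genes on the epithelium side and 2277 on the mesenchyme side in peaks, and at 2765 and 3578 in covered base pairs. Among the members, only Has1 and Has2 had such a p, both in covered base pairs and both towards epithelium. The median log2 difference, epithelium minus mesenchyme, was 0.10 over the members and -0.02 over all genes in peaks, and 0.09 over the members and -0.01 over all genes in covered base pairs. The difference was above 0 at 7 of 8 members in peaks and at 5 of 8 in covered base pairs. The share of all genes above 0 was not counted, so these counts cannot be set against genes at large. Hyal1 and Hyal2 share most of their peaks, so the 8 are not separate measurements. These p-values rest on the spread between the 6 libraries, at the gene itself and, through limma's moderation, at all genes tested. They measure no other spread.

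Some single regions were called in 1 tissue alone. They lay on the epithelium side at Has1, Has2 and Vcan, on the mesenchyme side at Cd44, Hapln1 and Hyal2, and on both sides at Has3. The share of all genes with such a region was not counted. Overlapping peaks of different libraries were joined into regions, 1 shared bp being enough, and a region seen in 2 or more libraries was kept. Epithelium-only regions carried a peak in each epithelium library and in none from mesenchyme, and mesenchyme-only regions the reverse. The windows of the 8 genes held 180 distinct kept regions. Of these, 11 (6.11%) were epithelium-only, where 2.98% of all 342690 kept regions were, and 7 (3.89%) were mesenchyme-only, where 2.20% of all were. These shares moved with single libraries, and those over all regions moved with them: the epithelium-only share was 10.7% at the members and 6.75% over all regions without epithelium library 3, and the mesenchyme-only share 5.75% and 5.95% without mesenchyme library 3. With a 50 kb window the mesenchyme-only share was 1.92% beside 2.20%. The epithelium-only regions lay at Has1 (4), Vcan (3), Has2 (2) and Has3 (2), and the mesenchyme-only regions at Cd44 (3), Has3 (2), Hapln1 (1) and Hyal2 (1). Has1, Has2 and Vcan had none of the mesenchyme-only kind, and Cd44, Hapln1 and Hyal2 none of the epithelium-only kind. Such a split is a presence call by the authors' peak caller and was not tested region by region, since 3 against 3 libraries cannot give an exact p below 0.1. In whole tissue, a smaller share of cells with a region open and less accessible chromatin in each cell cannot be told apart.

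**Figure D1:**
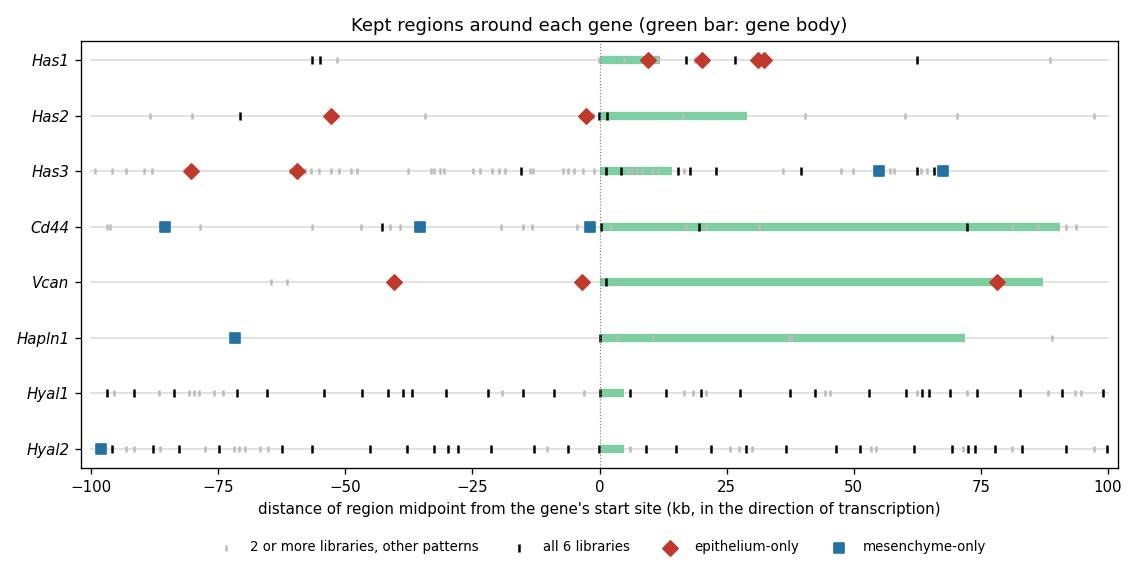
Position of each kept region in the windows of the 8 genes, plotted as the distance in kb from the gene's start site in the direction of transcription (x axis) for each gene (y axis). Red diamonds are the 11 epithelium-only regions, blue squares the 7 mesenchyme-only regions, black ticks regions with a peak in all 6 libraries and grey ticks the other kept regions. Red marks sit at Has1, Has2, Has3 and Vcan, blue marks at Has3, Cd44, Hapln1 and Hyal2.

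The 18 tissue-only regions were small and mostly away from promoters. Of the 18, 10 had their midpoint in an intron, 7 lay between genes and 1 lay in an exon, and 4 were within 10 kb of the start site of the member. Their median width was 568 bp, between 349 and 925 bp, beside a median of 597 bp over all epithelium-only regions, 542 bp over all mesenchyme-only regions and 1493 bp over regions found in all 6 libraries. The member was the nearest protein-coding gene for 12 of the 18. The nearest peak of the other tissue was between 114 and 19721 bp away, with a median of 1932.5 bp. The central 300 bp of 1 of the 11 epithelium-only and 1 of the 7 mesenchyme-only regions consisted mostly of repeated sequence, defined as at least 50% of bases in words of 12 bases that occur more than once in the window. The same was true of 1.18% of all epithelium-only, 2.25% of all mesenchyme-only and 3.67% of all kept regions. Reads from such repeats are hard to place, and the part this plays in the calls was not tested.

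At their start sites the members did not separate the tissues. A peak lay within 1 kb of an annotated start in all 6 libraries at 7 of 8 members, where 16110 of 21938 protein-coding genes (73.4%) had one in all 6 and 13.1% in none. Presence in all 3 libraries of one tissue and none of the other was rare among start sites, at 0.292% of genes on the epithelium side and 0.210% on the mesenchyme side, and no member was among them. The exception to full presence was Has1, with a start-site peak in 5 of 6 libraries.

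**Figure D2:**
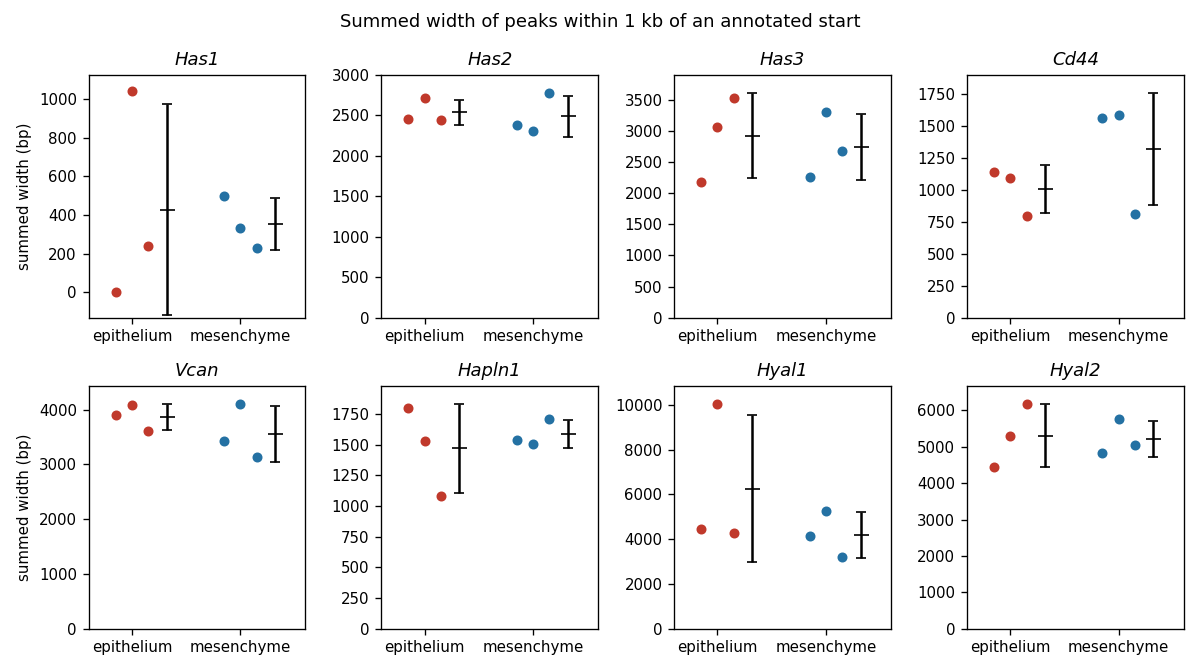
Summed width in bp (y axis) of the peaks within 1 kb of an annotated start of each gene, 1 point a library, for 3 epithelium (red) and 3 mesenchyme (blue) libraries, with the mean and SD in black beside each group. The axes differ between panels. The tissues overlap in all 8 panels, and Has1 shows the lowest means, with a 0 in epithelium library 1.

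Has2 encodes the hyaluronan synthase that makes most of the polymer in embryos. It lies at chr15:56665627-56694539 on the minus strand (GENCODE M21), and no other protein-coding gene starts in its window. Epithelium libraries 1, 2 and 3 had 13, 16 and 8 peaks in the Has2 window, and mesenchyme libraries 1, 2 and 3 had 7, 8 and 12. The means were 12.3 ± 4.04 in epithelium and 9 ± 2.65 in mesenchyme (n = 3 each, ± SD). Epithelium library 3 fell among the mesenchyme values, so the tissues overlapped. On the scaled log2 scale the difference was 0.45 (SE 0.29, 95% interval -0.13 to 1.04, limma adjusted p = 0.429), and it was 0.70 without epithelium library 3. The peaks covered 6402, 8438 and 5038 bp in epithelium and 4763, 4363 and 5821 bp in mesenchyme, a scaled log2 difference of 0.48 (SE 0.21, limma adjusted p = 0.126; unadjusted p = 0.031). At the start site all 6 libraries were alike, with summed peak widths of 2459, 2711 and 2440 bp in epithelium and 2375, 2307 and 2779 bp in mesenchyme.

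Both epithelium-only regions of Has2 lay upstream, in introns of Has2os, a noncoding transcript that runs antisense to Has2. The nearer one, chr15:56697084-56697432, was 2719 bp upstream of the Has2 start, with peak widths of 208, 321 and 348 bp in epithelium libraries 1, 2 and 3. Its closest mesenchyme peaks were only 909 to 989 bp away. The farther one, chr15:56746855-56747779, was 52778 bp upstream, with wider peaks of 738, 914 and 736 bp and no mesenchyme peak within 6286 bp. With peaks of at least 300 bp only, 1 of these calls was left, and without epithelium library 3 the rule gave 4. Among the 14 kept regions of Has2, 3 had a peak in all 6 libraries. The central 300 bases of both are shown because they are the regions that the epithelium-only rule picked at this gene (mm10, plus strand, chr15:56697109-56697408 and chr15:56747168-56747467). Capitals mark the motif matches found among the 8 consensus motifs described further on, a TWIST E-box in the near region and a RUNX match in the far one.
Has2 near region: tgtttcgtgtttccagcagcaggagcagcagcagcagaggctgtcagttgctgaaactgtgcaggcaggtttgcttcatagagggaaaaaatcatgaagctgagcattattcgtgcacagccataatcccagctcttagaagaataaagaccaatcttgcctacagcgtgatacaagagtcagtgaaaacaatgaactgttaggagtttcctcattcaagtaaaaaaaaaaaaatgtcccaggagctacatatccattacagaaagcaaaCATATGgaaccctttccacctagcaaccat
Has2 far region: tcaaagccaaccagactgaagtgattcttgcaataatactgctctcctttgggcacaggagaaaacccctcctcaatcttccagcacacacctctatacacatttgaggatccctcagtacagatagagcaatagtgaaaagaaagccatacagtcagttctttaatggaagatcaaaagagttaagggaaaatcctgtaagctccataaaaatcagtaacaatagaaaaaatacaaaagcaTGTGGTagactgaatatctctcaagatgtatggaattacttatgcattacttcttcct

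Over the 6 libraries, 3 genes on other chromosomes had a pattern of scaled log2 peak numbers most like that of Has2, the member with the largest moderated statistic in peaks. They were Mup2 (Pearson r = 0.987), Xkrx (r = 0.985) and Best3 (r = 0.984). Mup2 had 44, 54 and 31 peaks in epithelium and 27, 35 and 43 in mesenchyme. These are descriptions over 6 points, and 128 of 19784 genes compared (0.647%) had an r of at least 0.9 with Has2.

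Has1 encodes a second synthase of the same family. It lies at chr17:17843323-17855205 on the minus strand, in a window where 4 other protein-coding genes start (Spaca6, Fpr1, Fpr2 and Fpr3). Epithelium libraries 1, 2 and 3 had 12, 20 and 23 peaks, and mesenchyme libraries had 15, 15 and 14. The epithelium mean was 18.3 ± 5.69 and the mesenchyme mean 14.7 ± 0.577 (n = 3 each, ± SD), and the tissues overlapped because epithelium library 1 was the lowest of all 6. The log2 difference in peaks was 0.31 (SE 0.24, 95% interval -0.16 to 0.79, limma adjusted p = 0.519). It was 0.12 without epithelium library 3 and 0.50 without epithelium library 1.

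The base pairs covered by the peaks in the Has1 window did not overlap between the tissues. They came to 12468, 13510 and 14079 bp in epithelium and 10713, 10080 and 11830 bp in mesenchyme. The widest kept region of this window, chr17:17825847-17831350 (5504 bp), spanned the start of Spaca6 and had a peak in all 6 libraries. The widest single peak was 5292, 3132 and 3275 bp in epithelium and 3153, 3029 and 3063 bp in mesenchyme. How far the covered length belongs to Has1 was not tested. The scaled log2 difference was 0.40 (SE 0.16, 95% interval 0.07 to 0.72), which missed the threshold (limma adjusted p = 0.0908; unadjusted p = 0.018). All 3 epithelium libraries also lay above all 3 mesenchyme libraries in scaled covered base pairs at Has3 and Vcan, which makes 3 of 8 members, and 0 of 8 showed the reverse. Over all genes tested the shares were 14.9% and 17.3%. In scaled peaks per gene no member had separate groups, where 9.08% of all genes had all epithelium libraries above and 13.0% all below.

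Has1 held the most epithelium-only regions, 4 of its 15 kept regions. One, chr17:17845267-17845978, lay in an intron of Has1 itself, 9582 bp downstream of the start, with peak widths of 658, 465 and 365 bp. The other 3 were beyond the 3′ end of Has1 and closer to the start of Spaca6, at distances of 20105, 31102 and 32275 bp from the Has1 start. The region at chr17:17834698-17835502 was in an exon of Spaca6, and chr17:17823869-17824337 and chr17:17822596-17823264 lay between genes. In the last of these, 75.7% of the central 300 bases were in repeated words, against 0.00% in the other 3. The intronic region of Has1 is shown as the one that falls within the gene (chr17:17845474-17845773, mm10, plus strand), and it had no match to any of the 8 motifs.
Has1 intronic region: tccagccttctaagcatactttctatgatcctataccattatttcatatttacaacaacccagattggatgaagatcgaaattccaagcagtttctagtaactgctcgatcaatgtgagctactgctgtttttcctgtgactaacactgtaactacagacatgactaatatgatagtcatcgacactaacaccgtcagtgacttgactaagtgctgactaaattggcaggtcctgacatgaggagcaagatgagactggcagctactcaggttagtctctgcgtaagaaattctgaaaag

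Averaged over libraries, the Has1 start site had the smallest peak width of the 8 genes. Summed start-site widths were 0, 1041 and 237 bp in epithelium and 498, 330 and 229 bp in mesenchyme, and the other members reached at least 793 bp in each library. The 250 bases upstream of the Has1 start overlapped a peak in 3 libraries, namely epithelium library 2 and mesenchyme libraries 1 and 2. The same stretch of Vcan overlapped a peak in all 6. Both are printed to set a weakly called promoter beside an open one, from RefSeq on GRCm38.p6, each read along the gene (minus strand, chr17:17855189-17855438 for Has1 and chr13:89742513-89742762 for Vcan). Promoter sequences were at hand for 6 of the 8 genes, not for Has2 and Has3. Capitals mark matches to the SP/KLF consensus CCNCNCCC on either strand, 1 in Has1 and 6 in Vcan, several of which overlap each other. Such a match occurred in 45.9% of 32851 promoter stretches of this length.
Has1 promoter: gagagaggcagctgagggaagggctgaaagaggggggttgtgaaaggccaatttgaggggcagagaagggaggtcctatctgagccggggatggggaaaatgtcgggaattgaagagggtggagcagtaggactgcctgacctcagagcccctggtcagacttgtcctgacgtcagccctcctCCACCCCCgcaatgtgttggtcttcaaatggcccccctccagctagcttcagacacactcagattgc
Vcan promoter: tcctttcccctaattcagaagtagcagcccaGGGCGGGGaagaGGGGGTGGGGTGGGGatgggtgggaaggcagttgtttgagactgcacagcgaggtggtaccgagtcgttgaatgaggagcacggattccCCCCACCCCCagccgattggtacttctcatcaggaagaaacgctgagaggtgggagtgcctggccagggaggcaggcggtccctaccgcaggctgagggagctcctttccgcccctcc

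Has3, the synthase known from epidermis and other epithelia, lies at chr8:106870242-106884566 on the plus strand, and other genes start 4 times in its window (Chtf8 from 2 annotated genes, Utp4 and Sntb2). It had 45, 53 and 44 peaks in epithelium and 43, 52 and 46 in mesenchyme, nearly the same range. The log2 difference was 0.07 (SE 0.14, 95% interval -0.22 to 0.36, limma adjusted p = 0.845). In scaled covered base pairs the tissues did not overlap, with 23808, 24017 and 24943 bp in epithelium and 20739, 22867 and 22160 bp in mesenchyme, and the log2 difference was 0.14 (SE 0.13, limma adjusted p = 0.466). Of its 58 kept regions, 2 were epithelium-only and 2 mesenchyme-only. These counts became 6 and 3 without epithelium library 3, 3 and 6 without mesenchyme library 2, 4 and 1 with peaks of at least 300 bp, and 0 and 0 with a 50 kb window. Both epithelium-only regions were upstream in introns of Tango6, at chr8:106789474-106790147 and chr8:106810351-106811021. Both mesenchyme-only regions were downstream, 54988 and 67518 bp from the start and nearer to Sntb2 than to Has3, and epithelium peaks lay within 458 and 428 bp of them. Inside the gene body the counts leaned the other way, with 4, 4 and 5 peaks in epithelium and 8, 5 and 10 in mesenchyme, a log2 difference of -0.61 that did not pass (limma adjusted p = 0.521 with the gene body alone). Peaks within 1 kb of a start summed to 2181, 3068 and 3532 bp in epithelium and 2256, 3311 and 2683 bp in mesenchyme.

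**Figure D3:**
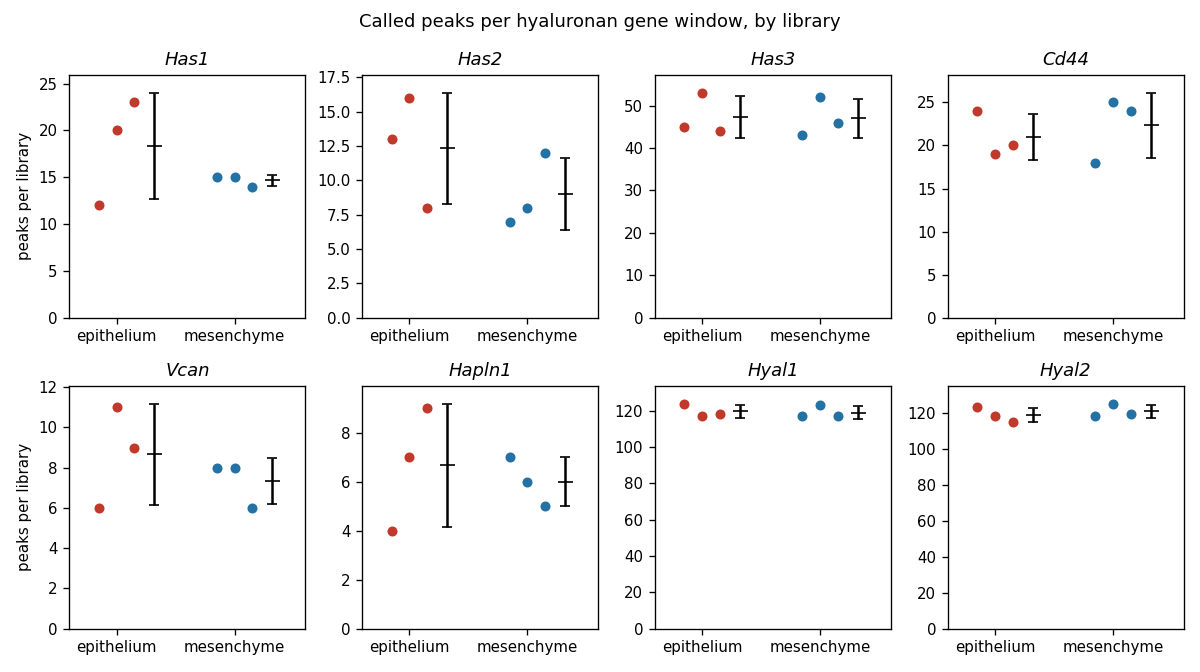
Number of called peaks in the window of each gene (y axis), 1 point a library, for 3 epithelium (red) and 3 mesenchyme (blue) libraries, with the mean and SD in black beside each group. Counts are as listed, before scaling, and the axes differ between panels. The tissues overlap at all 8 genes, from Hapln1 with 4 to 9 peaks to Hyal1 and Hyal2 with 115 to 125.

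Cd44 encodes the main cell-surface receptor for hyaluronan. It lies at chr2:102811141-102901665 on the minus strand, and no other protein-coding gene starts in its window. It had 24, 19 and 20 peaks in epithelium and 18, 25 and 24 in mesenchyme, with means of 21 ± 2.65 and 22.3 ± 3.79 (n = 3 each, ± SD). The log2 difference was -0.02 (SE 0.21, 95% interval -0.44 to 0.41, limma adjusted p = 0.976). Covered base pairs were 9126, 8297 and 7330 in epithelium, against 9026, 11382 and 10657 in mesenchyme, a scaled log2 difference of -0.21 (SE 0.18, limma adjusted p = 0.458). Mesenchyme library 1 fell within the epithelium range, so the groups overlapped.

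The Cd44 promoter was called open in both tissues. Summed start-site widths were 1139, 1091 and 793 bp in epithelium and 1563, 1585 and 811 bp in mesenchyme, where mesenchyme libraries 1 and 2 were the widest and mesenchyme library 3 fell in the epithelium range. All 3 tissue-only regions of Cd44, of 26 kept regions, were mesenchyme-only, lay upstream between genes and had Cd44 as the nearest coding gene. They were chr2:102903369-102903793, chr2:102936843-102937302 and chr2:102986969-102987487, at 1916, 35408 and 85563 bp from the start. The peaks in them were narrow, from 236 to 473 bp. The promoter-proximal one is shown because of what it is made of (chr2:102903432-102903731, mm10, plus strand), with 98.7% of its bases in repeated words, whereas the other 2 held 0.00% in such words.
Cd44 upstream region: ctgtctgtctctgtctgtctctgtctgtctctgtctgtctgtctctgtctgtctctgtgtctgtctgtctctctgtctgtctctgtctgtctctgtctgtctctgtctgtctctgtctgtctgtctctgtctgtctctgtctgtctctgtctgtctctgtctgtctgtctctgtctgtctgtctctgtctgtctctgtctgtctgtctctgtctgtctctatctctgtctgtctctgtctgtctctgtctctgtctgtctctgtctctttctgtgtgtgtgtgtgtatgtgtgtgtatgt

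Chromosome 2 as a whole held 7.79 ± 0.136% of peaks in epithelium and 8.19 ± 0.106% in mesenchyme (n = 3 each, ± SD), with no overlap between the tissues. Scaled to its own chromosome, Cd44 had a log2 difference of 0.05 in peaks and -0.11 in covered base pairs. Cd44 is also carried by leukocytes. The summed scaled peaks at 8 leukocyte and macrophage markers ranged from 474 to 486 in epithelium and from 491 to 499 in mesenchyme. At 12 epithelium markers the same sums overlapped, at 675 to 734 in epithelium and 666 to 691 in mesenchyme. At 12 mesenchyme markers they overlapped too, at 427 to 504 and 488 to 547. None of the 8 leukocyte and macrophage markers passed in peaks per gene, and none was at 0 in any library. In covered base pairs 1 of the 8 passed higher in mesenchyme, beside 7.48% of all genes. In that measure all epithelium libraries lay below all mesenchyme libraries at 3 of the 8, beside 17.3% of all genes. Their part in the Cd44 regions was not tested.

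Vcan encodes versican, the large chondroitin sulfate proteoglycan that binds hyaluronan in embryonic matrix. It lies at chr13:89655312-89742509 on the minus strand, with no other coding start in its window. It had 6, 11 and 9 peaks in epithelium and 8, 8 and 6 in mesenchyme, with means of 8.67 ± 2.52 and 7.33 ± 1.15 (n = 3 each, ± SD). The tissues overlapped, and the log2 difference was 0.24 (SE 0.31, 95% interval -0.39 to 0.87, limma adjusted p = 0.741). It was 0.38 without epithelium library 1, and 0.16 and 0.12 without epithelium library 2 and mesenchyme library 3. The base pairs covered were 5667, 6450 and 5714 in epithelium, against 5167, 5568 and 4109 in mesenchyme, with each epithelium value above each mesenchyme value. The scaled log2 difference in covered base pairs was 0.36 (SE 0.21, 95% interval -0.06 to 0.79, limma adjusted p = 0.247). Most of these base pairs were in start-site peaks, whose summed widths were 3908, 4086 and 3620 bp in epithelium and 3426, 4113 and 3132 bp in mesenchyme, which overlapped.

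Epithelium-only regions made up 3 of only 6 kept regions at Vcan. One, chr13:89664172-89664554, lay in a Vcan intron 78146 bp into the gene. The other 2 were upstream, chr13:89745648-89746127 at 3379 bp in an intron of the antisense gene Gm4117, and chr13:89782730-89783242 at 40477 bp in introns of Gm4117 and Xrcc4. Vcan was the nearest coding gene for all 3, and the closest mesenchyme peaks were at least 11758, 2409 and 19721 bp away, in that order. The peaks were narrow, at 383, 317 and 218 bp in the intron and 282, 273 and 480 bp near the promoter. With peaks of at least 300 bp only, none of the 3 kept its call. The region nearest the promoter is shown (chr13:89745739-89746038, mm10, plus strand), with a RUNX match in capitals.
Vcan upstream region: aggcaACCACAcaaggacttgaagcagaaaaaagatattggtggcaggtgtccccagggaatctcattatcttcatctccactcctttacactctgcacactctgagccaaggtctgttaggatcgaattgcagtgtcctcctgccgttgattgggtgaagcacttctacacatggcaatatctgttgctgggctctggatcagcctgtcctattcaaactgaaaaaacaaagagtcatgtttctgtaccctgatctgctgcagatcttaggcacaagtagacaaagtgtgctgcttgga

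Hapln1, a neighbour of Vcan on chromosome 13, encodes the link protein that locks proteoglycans such as versican onto hyaluronan. It lies at chr13:89539796-89611652 on the plus strand. It had the fewest peaks of the 8 genes, 4, 7 and 9 in epithelium and 7, 6 and 5 in mesenchyme. The log2 difference was 0.13 with a wide interval (SE 0.35, 95% interval -0.57 to 0.84, limma adjusted p = 0.885). Covered base pairs were 2514, 3232 and 3302 in epithelium, against 3136, 2718 and 3582 in mesenchyme, a scaled log2 difference of 0.04 (SE 0.26, limma adjusted p = 0.931). The start-site peaks summed to 1803, 1528 and 1078 bp in epithelium and 1537, 1510 and 1714 bp in mesenchyme. Of its 7 kept regions, 1 was mesenchyme-only, chr13:89468002-89468382, between genes and 71604 bp upstream, with peak widths of 380, 355 and 234 bp. No epithelium peak lay within 9385 bp of it.

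Hyal1 and Hyal2 encode the hyaluronidases of lysosomes and of the cell surface. They are neighbours at chr9:107576927-107581710 and chr9:107567945-107572779, both on the plus strand, in a gene-dense stretch where 13 and 12 other coding genes start in the respective windows. The windows shared 111 to 119 peaks a library and 46 kept regions, so these are not separate measurements. Hyal1 had 124, 117 and 118 peaks in epithelium and 117, 123 and 117 in mesenchyme. Hyal2 had 123, 118 and 115 peaks in epithelium and 118, 125 and 119 in mesenchyme. The ranges overlapped at both genes. The Hyal1 peaks covered 98007, 118118 and 107214 bp in epithelium and 112000, 129521 and 122244 bp in mesenchyme.

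The differences at the hyaluronidases were the most tightly bounded of the 8. The log2 difference in peaks was 0.07 at Hyal1 (95% interval -0.14 to 0.28, limma adjusted p = 0.784) and 0.04 at Hyal2 (95% interval -0.17 to 0.24, limma adjusted p = 0.891). In covered base pairs it was -0.06 (limma adjusted p = 0.572) and -0.08 (limma adjusted p = 0.413). Chromosome 9 held 5.30 ± 0.0928% of peaks in epithelium and 5.57 ± 0.0499% in mesenchyme (n = 3 each, ± SD), without overlap, and scaled to that chromosome the log2 differences in peaks were 0.14 and 0.11. Peaks were found in all 6 libraries at 30 of 49 kept regions of Hyal1 and 30 of 51 of Hyal2, whereas 19.1% of all kept regions had that breadth. Hyal1 had no tissue-only region, and the single one of Hyal2, chr9:107469489-107470105, was mesenchyme-only, 98148 bp upstream in an intron of Cacna2d2, with an epithelium peak 114 to 566 bp away in each epithelium library. Start-site widths at Hyal1 were 4436, 10067 and 4267 bp in epithelium and 4123, 5254 and 3188 bp in mesenchyme, with epithelium library 2 far above the rest. At Hyal2 they were 4433, 5311 and 6190 bp in epithelium and 4832, 5766 and 5063 bp in mesenchyme.

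**Figure D4:**
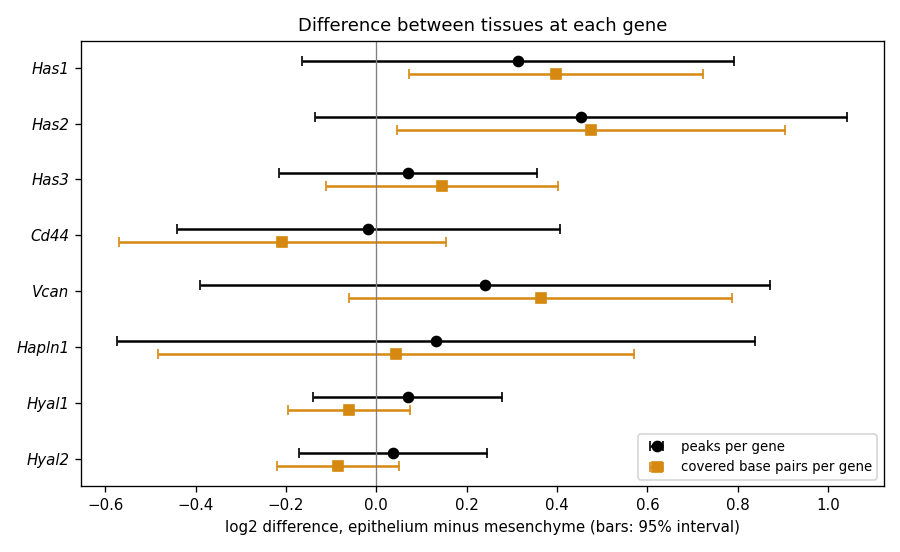
Log2 difference between the tissues, epithelium minus mesenchyme (x axis), at each gene (y axis), for scaled peaks per gene (black circles) and scaled covered base pairs (orange squares), with 95% intervals from limma as bars. The intervals in peaks all span 0. Those in covered base pairs lie above 0 at Has1 and Has2, where the adjusted p was 0.0908 and 0.126.

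The sequences of the tissue-only regions were searched on both strands, in the central 300 bp, for 8 consensus motifs. TWIST E-boxes (CATATG or CATCTG) occurred in 4 of the 11 epithelium-only and 0 of the 7 mesenchyme-only regions, where 29.8% of all kept regions had one. RUNX (TGTGGT) occurred in 4 and 1, where 22.9% of all kept regions had it. SP/KLF (CCNCNCCC) occurred in 3 and 2, beside 35.6% of all. AP-1 (TGANTCA) occurred in 1 and 1, beside 9.02%, and TEAD (GGAATG) in 1 and 1, beside 16.9%. The homeobox word TAATTA was found in 1 epithelium-only region and no mesenchyme-only region, beside 3.33%. GRHL (AACNNGTT, 3.79% of all) and the long palindrome of NF1 (0.0578% of all) had no match in any of the 18. Over all epithelium-only and all mesenchyme-only regions the shares were 27.2% and 30.7% for TWIST E-boxes and 22.6% and 32.6% for RUNX. They were 25.2% and 29.8% for SP/KLF, 17.0% and 10.7% for AP-1, and 27.1% and 17.2% for TEAD. The homeobox word had 6.36% and 6.41%, GRHL 8.95% and 3.48%, and NF1 0.137% and 0.0132%. A RUNX and an SP/KLF match overlapped in 1 region of Has1. These are matches of letters, not binding events, and the counts are too small to set apart from the shares over all regions.

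A list of 34 further genes was drawn up around hyaluronan metabolism and binding, and not every gene on it acts on hyaluronan itself. Of the 34, 0 passed higher in epithelium in peaks per gene and 1 higher in mesenchyme. The shares over all genes were 1.49% and 1.66%, so the count itself is near that of genes at large. The gene that passed was Lyve1, a hyaluronan receptor of lymphatic endothelium and some macrophages. It had 33, 51 and 32 peaks in epithelium and 60, 62 and 58 in mesenchyme, with no overlap. The log2 difference was -0.59 (SE 0.15, limma adjusted p = 0.0143), and in covered base pairs it was also -0.59 (limma adjusted p = 0.00773). The call in peaks held in 9 of 17 alternatives, among them the replicate block and both filters, which repeat the difference by construction. It was lost without epithelium library 3 (limma adjusted p = 0.0834), without mesenchyme library 1 (0.0695) and with a 50 kb window (0.384). The call was also lost without scaling (limma adjusted p = 0.143), with quantile normalization (0.0560) and with peaks of at least 300 bp (0.0536). By nearest start (limma adjusted p = 0.390) and with the gene body alone (0.964) it was lost as well. Of the 60 kept regions in the Lyve1 window, where 2 other coding genes start, 3 were mesenchyme-only and 1 epithelium-only. At 8 endothelial markers the summed scaled peaks ranged from 304 to 336 in epithelium and from 322 to 354 in mesenchyme. Of these 8 markers, 0 passed in peaks per gene. In covered base pairs 2 passed higher in epithelium, beside 6.16% of all genes. Their part in the Lyve1 difference was not tested, nor was that of the leukocyte and macrophage markers.

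The 3 genes with the largest differences among those that did not pass in peaks were Spam1, Slc35d1 and Hyal4. Spam1 and Hyal4 both lie on chromosome 6, and 3 other coding genes start in each of their windows. How many peaks they share was not counted, so they may not be separate measurements. Slc35d1, which carries UDP-sugars into the endoplasmic reticulum, had 25, 26 and 25 peaks in epithelium and 15, 22 and 18 in mesenchyme, a log2 difference of 0.52 (limma adjusted p = 0.148). In covered base pairs Slc35d1 did pass, at 0.54 (SE 0.16, limma adjusted p = 0.0275), and 5 of its 25 kept regions were epithelium-only and 0 mesenchyme-only. In that measure 1 of the 34 genes passed in each direction, beside 6.16% of all genes higher in epithelium and 7.48% higher in mesenchyme. The Slc35d1 call in covered base pairs held in 9 of 16 alternatives. It was lost without scaling (limma adjusted p = 0.250). It was also lost without epithelium library 1 or 2 and without mesenchyme library 1 or 3, with limma adjusted p-values from 0.0788 to 0.0963. Spam1, a sperm hyaluronidase, had 6, 5 and 4 peaks in epithelium and 1, 2 and 5 in mesenchyme (log2 difference 0.90, the largest in size of the 34, limma adjusted p = 0.275). Its difference was 0.57 without mesenchyme library 1 and 0.07 with peaks of at least 300 bp. Hyal4, a relative of the hyaluronidases, had 9, 9 and 4 peaks in epithelium and 3, 6 and 6 in mesenchyme (0.51, limma adjusted p = 0.498), and the difference was 0.26 without epithelium library 1, 0.28 without mesenchyme library 1 and 0.83 without epithelium library 3. The 34 genes had a median log2 difference of 0.01 in peaks, against -0.02 over all genes. Their windows held 22 epithelium-only and 23 mesenchyme-only among 1212 kept regions, or 1.82% and 1.90%, below the 2.98% and 2.20% over all kept regions.

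The libraries carried 270003 to 349322 peaks each, whose total length differed too, and the depth in reads is unknown. Tissue identity was checked at 12 markers each. At the epithelium markers 28 of 641 kept regions were epithelium-only and 7 mesenchyme-only, and at the mesenchyme markers 2 of 480 were epithelium-only and 25 mesenchyme-only. In peaks per gene, 2 of the 12 epithelium markers passed higher in epithelium and 1 of the 12 mesenchyme markers higher in mesenchyme, so that most markers of either tissue did not pass either. In covered base pairs 7 epithelium markers passed higher in epithelium and 1 higher in mesenchyme, and 3 mesenchyme markers passed higher in mesenchyme. Every marker had peaks in every library, those of the other tissue included. Across the muscle list 0 of 316 kept regions were epithelium-only and 2 mesenchyme-only, and across the nerve and glia list 4 of 263 and 1.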

How the data were processed

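ATAC-seq peak lists of 3 epithelium and 3 mesenchyme libraries were used. Per the labels and the study's methods, the authors used Trimmomatic 0.38 for trimming, Bowtie2 for alignment to mm10 and SAMtools for removing duplicates, kept short nucleosome-free fragments and called peaks in each library alone with MACS2 2.1.1. DeepTools 2.0 is also named. Their threshold was not stated. Each deposited list holds start and end positions only, with no other values, so a missing peak may be a region just under the authors' threshold, and the depth in reads is unknown.

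Peaks were assigned by midpoint and counted for every protein-coding gene, so neighbouring genes share peaks. Counts were scaled to the mean list length and covered base pairs to the mean covered length. Log2(peaks + 1) and log2(base pairs + 300) were tested with limma 3.58.1 (R 4.3.3, mean trend, no replicate block, two-sided) for 21750 genes averaging 1 peak a library or more. The fold scale understates changes at low values. The study itself compared reads with DiffBind, which peak lists do not allow. Start sites came from GENCODE M21, bedtools 2.31.1 merged peaks, and the limma script was tested on simulated data. All 8 members were described, with those of the 34 listed pathway genes that passed in peaks and the 3 with the largest differences beyond them, and the 3 genes most like Has2. The passing of Slc35d1 in covered base pairs was singled out after its values were seen, and so was the repeat content of region sequences. The members, lists, motifs and tests were chosen with earlier results of these data known. Alternatives covered scaling, window, peak width, assignment, filters, pseudocounts, the replicate block and leaving out each library.

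No peak, fold or p-value of the authors' own comparisons was used. Same-numbered epithelium and mesenchyme libraries deviated from their tissue means with correlations of 0.018, 0.050 and -0.009 over genes, so the numbers were not treated as pairs. These correlations cannot show whether same-numbered libraries came from the same embryos.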

Additional observations from a re-analysis of the deposited data

How the results depend on the processing

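At the 8 genes, 216 alternative values of the log2 difference came from settings that can change it, over both measures. Of these, 184 kept the direction and 32 reversed it. The 184 include Has2, Vcan and Hapln1 in peaks with each peak given to the nearest start, a setting that left their main values unchanged. The replicate block and both filters repeat the main difference by construction (48 values), and with those included 0 passed the threshold. No value reversed at Has1, Has2 or Vcan in either measure. In peaks, the reversed values were -0.024 at Hyal2 without scaling, 0.052 at Cd44 scaled on its own chromosome and -0.037 at Hapln1 with quantile normalization. They were also -0.11 at Has3 with a 50 kb window, -0.020 at Hyal2 with peaks of at least 300 bp, and -0.10 at Hyal1 and -0.17 at Hyal2 with each peak given to the nearest start. With the gene body alone they were -0.61 at Has3, 0.016 at Cd44, -0.045 at Hapln1 and -0.21 at Hyal2. Leaving out 1 library gave 0.12 to 0.50 at Has1, 0.32 to 0.70 at Has2, 0.020 to 0.10 at Has3, 0.12 to 0.38 at Vcan, -0.19 to 0.14 at Cd44, -0.10 to 0.34 at Hapln1, -0.040 to 0.19 at Hyal1 and -0.073 to 0.14 at Hyal2. In covered base pairs, Hapln1 was at -0.056 without scaling and -0.056 scaled on its own chromosome, where Hyal1 was at 0.00085. Quantile normalization gave -0.20 at Hapln1, 0.015 at Hyal1 and 0.0064 at Hyal2, and a 50 kb window -0.016 at Has3, -0.10 at Hapln1, 0.063 at Hyal1 and 0.022 at Hyal2. The gene body alone gave -0.24 at Has3, 0.019 at Cd44 and -0.11 at Hapln1, and leaving out 1 library -0.083 to 0.12 at Hapln1. The cause of these reversals was not tested.

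The 11 epithelium-only regions became 19 without epithelium library 3 (11 to 19 on leaving out 1 library), where the share over all kept regions also rose, from 2.98% to 6.75%. Their share at the members went from 6.11% to 10.7%, and it was 8.24% beside 6.54% without epithelium library 1. The 7 mesenchyme-only regions became 14 when 1 library of the other tissue was allowed a peak, 2 with a 50 kb window and 12 without mesenchyme library 2 (9 to 12 on leaving out 1 library). The share, 3.89% at the members beside 2.20% of all, was then 7.78% beside 5.98%, 1.92% beside 2.20% and 6.56% beside 5.78%. It was 5.08% beside 6.50% without mesenchyme library 1 and 5.75% beside 5.95% without mesenchyme library 3, so its excess over all regions turned under these and the 50 kb window. The number of members with a start-site peak in all 6 libraries was 7 under every alternative run.

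Over all genes, those called in peaks, 323 higher in epithelium and 360 higher in mesenchyme, became 31 and 16 without scaling, 215 and 220 scaled on their own chromosome, 174 and 155 with a 50 kb window, 22 and 10 by nearest start, and 0 and 0 with the gene body alone (limma, with 794 and 1087 at an unadjusted p under 0.05). Quantile normalization left 194 higher in mesenchyme. Leaving out 1 library gave 151 to 283 and 142 to 271. In covered base pairs, 1340 and 1627 became 323 and 487 without scaling, 882 and 959 with a 50 kb window and 15 and 4 with the gene body alone. There 1064 were higher in mesenchyme on their own chromosome's scale and 827 with quantile normalization, and leaving out 1 library gave 749 to 1027 and 921 to 1502. With the replicate number as a block, 424 and 568 genes were called in peaks and 1317 and 1761 in covered base pairs, and no member passed. The mesenchyme was the tissue left after peeling, so libraries of both tissues may share embryos, and which of them do is not stated.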
